A study of Mus musculus with 22 samples.

Results

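The 10 immediate early genes described here lie outside the AP-1 family and were followed through the peak lists of CREB1 and C/EBP beta in mouse collecting duct cells: Nr4a1, Nr4a2, Nr4a3, Egr1, Ier2, Ier3, Dusp1, Dusp5, Rgs2 and Btg2. They were chosen by name, as 10 of the 21631 protein-coding genes on the autosomes and X in the RefSeq gene table of build mm10 (GRCm38.p6). For each gene, all peaks that shared bases with it or lay within 100 kb of it were collected, and 12 peaks were found. The cells were mpkCCD, clone 11, a clonal line of mouse cortical collecting duct cells at passages 6 to 12. They were grown on permeable supports and kept for 24 h without serum and hormones before treatment. One group then received 0.1 nM dDAVP, a vasopressin analog selective for the V2 receptor, and the other its vehicle, both for 30 min. Chromatin was immunoprecipitated with an antibody against CREB1 (4 samples per treatment) or against C/EBP beta (2 samples per treatment). Of the 22 samples, 10 were inputs without antibody, and 2 of these inputs served both antibodies.

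The data are 1 deposited peak list per antibody and treatment, with 785 CREB1 peaks after vehicle and 406 after dDAVP, and with 209 C/EBP beta peaks after vehicle and 2401 after dDAVP. No reads or per-replicate lists were analysed, so depth is unknown and no difference between treatments could be tested over replicates. Where a list holds no peak, the factor may still have been bound below the level that the authors' calling reached. Peak lists hold no expression, so the identity of the cells could not be checked with marker genes, and nothing below says whether a gene was transcribed.

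Immediate early genes are switched on within minutes of a stimulus by factors that are already in the cell, without new protein synthesis. Vasopressin raises cAMP in collecting duct cells, cAMP activates protein kinase A, and the kinase phosphorylates CREB1, which sits on the cAMP response element (CRE) of its target promoters. C/EBP beta is a leucine zipper factor of stress and inflammatory responses. The genes studied here encode transcription regulators (the NR4A receptors, EGR1, IER2, BTG2) and brakes on signalling (the phosphatases DUSP1 and DUSP5, the G protein regulator RGS2), together with the stress protein IER3.

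The promoter windows were searched for the elements that CREB1 is known to bind. The RefSeq promoter table (GRCm38.p6; 250 bases before to 50 after each start) held 8 of the 10 genes, without Ier2 and Egr1. The full CRE, TGACGTCA, was found in 2 of the 8 windows, those of Btg2 and Dusp1, and in 2.26% of all 21045 windows of protein-coding genes. The short CRE, TGACG on either strand, was found in 7 of the 8, all but Ier3, and in 23.8% of all windows. A full CRE is read the same on both strands and counts as 2 short CREs. The stretches before the start that show these matches are given here on the gene's strand, with each short CRE in capitals, so that 8 capitals in a row mark a full CRE. The stretches lie at chr1:134079156-134079405 (minus strand) for Btg2, chr17:26508473-26508722 (minus) for Dusp1 and chr2:57124004-57124253 (minus) for Nr4a2.

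Btg2: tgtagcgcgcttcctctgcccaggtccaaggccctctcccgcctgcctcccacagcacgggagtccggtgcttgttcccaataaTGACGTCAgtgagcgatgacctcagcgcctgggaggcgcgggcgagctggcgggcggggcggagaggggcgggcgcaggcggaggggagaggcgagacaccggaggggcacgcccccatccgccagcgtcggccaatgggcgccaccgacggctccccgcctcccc
Dusp1: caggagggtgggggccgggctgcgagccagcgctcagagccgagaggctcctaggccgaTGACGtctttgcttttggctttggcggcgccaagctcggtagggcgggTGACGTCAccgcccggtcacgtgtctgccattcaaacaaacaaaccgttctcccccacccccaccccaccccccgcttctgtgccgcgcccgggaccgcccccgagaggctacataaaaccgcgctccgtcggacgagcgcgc
Nr4a2: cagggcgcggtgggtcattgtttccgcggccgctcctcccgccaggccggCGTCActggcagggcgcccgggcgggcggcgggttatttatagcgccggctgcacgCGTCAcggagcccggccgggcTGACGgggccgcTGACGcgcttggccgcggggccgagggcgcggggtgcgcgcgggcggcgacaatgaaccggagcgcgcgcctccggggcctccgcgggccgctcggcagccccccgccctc

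In Nr4a1, Nr4a3, Rgs2 and Dusp5 the matches are shown in 29 bases each, around 1 short CRE per gene, at chr15:101266794-101266822 (plus strand), chr4:48045088-48045116 (plus), chr1:144004200-144004228 (minus) and chr19:53529078-53529106 (plus). The Nr4a3 stretch holds a pair of them.
Nr4a1: cccctctccatgCGTCAcggagcgcttaa
Nr4a3: atgtCGTCAcatTGACGtctcgcattcca
Rgs2: ttggggcgtggcTGACGcctccaggtccc
Dusp5: tatgggcactcaCGTCAcaggacgcgcac

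None of the 8 promoter windows overlapped a CREB1 peak. Over all windows, 3.70% overlapped a CREB1 peak after vehicle and 1.91% after dDAVP. Windows with a CRE were more often in the CREB1 lists: 38.5% of windows with the full CRE overlapped a CREB1 vehicle peak and 23.4% a CREB1 dDAVP peak. For windows with at least 1 short CRE these shares were 13.3% and 7.22%, and for windows without one 0.705% and 0.250%. Conversely, 85.5% of the 779 windows with a CREB1 vehicle peak held a short CRE. The full CRE of Btg2 starts 166 bases before the gene's start and that of Dusp1 143 bases before it. For Nr4a1 and Nr4a3 the start in the promoter table lies inside the gene span of the gene table, and distances are from that inner start. The last short CREs before the start begin 40 bases from it in Nr4a1, 55 in Dusp5, 67 in Rgs2, 111 in Nr4a2 and 147 in Nr4a3. The sites of the C/EBP family that were searched on both strands, the palindrome TTGCGCAA, the core TTGCNNAA that includes it and the composite C/EBP-ATF site TGATGCAA, were in 0 of the 8 windows, against 0.223%, 10.3% and 0.851% of all windows. No C/EBP beta peak of either list overlapped any of the 8 windows either, where 0.185% of all windows overlapped one after vehicle and 1.41% after dDAVP. The NR4A response element AAAGGTCA and the EGR site GCGTGGGCG were in 0 of 8 as well (1.32% and 0.836% of all windows). TATAAA on either strand was in 1 of 8, Nr4a2 (12.7% of all windows). That match lay on the strand opposite to the gene and began 164 bases before the start.

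**Figure D1:**
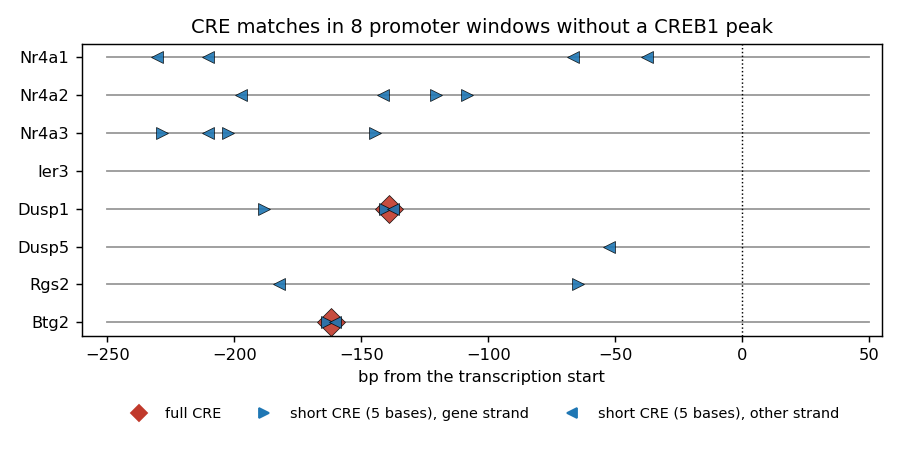
Positions of CRE matches in the RefSeq promoter windows of 8 immediate early genes, in bp from the transcription start (x axis). Diamonds are full CREs and triangles are short CREs, pointing right on the gene's strand and left on the other; Ier3 has no match, Nr4a1, Nr4a2 and Nr4a3 have 4 short CREs each, and none of the windows overlaps a CREB1 peak.

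CREB1 peaks were found at 2 of the 10 genes, both after vehicle. Ier2 had a peak over one end of the gene, and Btg2 had one 13.9 kb away. Over all genes, 18% had a CREB1 vehicle peak in the gene or within 100 kb, so the share of the 10 genes, 20.0%, was near the background. Within 5 kb only Ier2 had a CREB1 vehicle peak, 1 of 10 against 5.20% of all genes. After dDAVP no gene had a CREB1 peak within 100 kb, where 10.4% of all genes had one, or within 5 kb, where 2.74% had one. With 10 genes, these counts were near the background as well.

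C/EBP beta peaks were found at 6 of the 10 genes after dDAVP: Nr4a1, Egr1, Ier2, Ier3, Dusp5 and Rgs2. The background was 29.5% of all genes with a peak in the gene or within 100 kb. Within 5 kb there were 3 genes, Ier2, Dusp5 and Rgs2, against 7.88% of all genes. The vehicle list had no peak within 100 kb of any of the 10 (background 3.47%) or within 5 kb (0.786%). The 6 genes held 10 peaks, and 5 of those had the immediate early gene as their nearest protein-coding gene. When the dDAVP list was reduced to its 209 best scores, as many as the vehicle list holds, 0 of 10 genes had a peak within 100 kb (background 3.74%) or within 5 kb (0.874%).

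**Figure D2:**
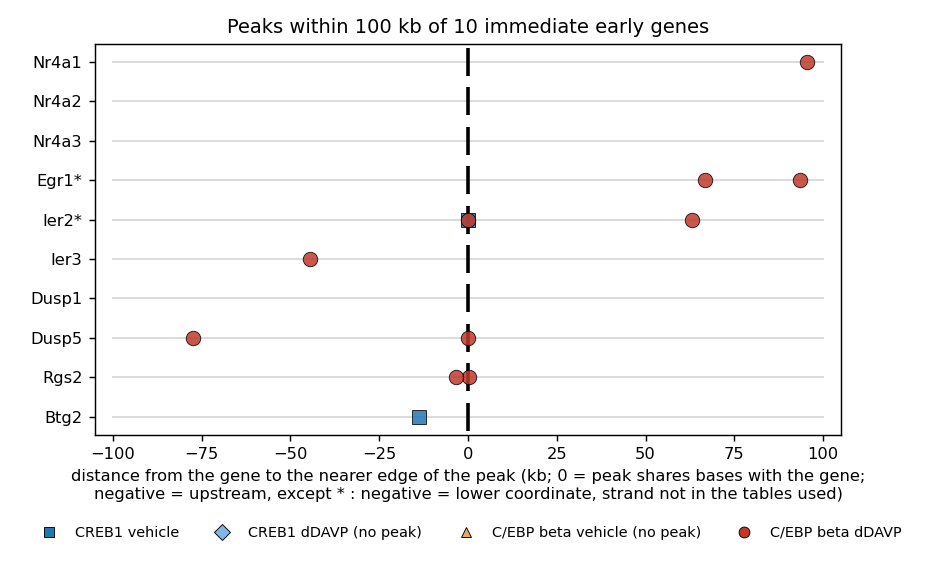
Each row is 1 gene, the black tick is the gene, and each symbol is a peak placed by its distance to the gene in kb (x axis, negative upstream, or towards lower coordinates for the starred genes). The 2 blue squares are CREB1 vehicle peaks, the 10 red circles are C/EBP beta dDAVP peaks, and the other lists have no peak in this range.

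Ier2, a small nuclear protein induced by growth factors, was the only one of the 10 genes with peaks of both factors. Over all genes, 185 (0.855%) had both a CREB1 vehicle peak and a C/EBP beta dDAVP peak within 5 kb, as Ier2 did. The gene spans chr8:84661331-84662852, 1522 bp. The CREB1 vehicle peak lay at chr8:84662755-84663019 and was 265 bp wide, with 98 bases inside the gene and 167 beyond the end with the higher coordinate. Its width was below the list median of 290 bp, and 38.5% of CREB1 vehicle peaks were no wider. The nearest CREB1 peak after dDAVP was 594.5 kb from the gene. The first C/EBP beta dDAVP peak lay wholly inside the gene, at chr8:84661610-84661893, with an authors' deposited score of 422. That score is at or above those of 78.7% of the list. The CREB1 and C/EBP beta peaks at Ier2 did not overlap. They were 862 bp apart, or 1136 bp from centre to centre. A C/EBP beta dDAVP peak at most this far away was found for 73 of the CREB1 vehicle peaks (9.30%), of which 49 overlapped one. A second C/EBP beta dDAVP peak 63.1 kb away lay inside Nfix, a nuclear factor I gene, and its score of 62 was among the lowest 2.83% of the list.

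Rgs2, which speeds the shut-off of G protein signalling, had C/EBP beta peaks on both sides after dDAVP and none of CREB1. The gene spans chr1:143999338-144004149 on the minus strand. The upstream peak, chr1:144007421-144007687, was centred 3.40 kb before the transcription start and had a score of 273. The other peak, chr1:143998807-143998995, lay 343 bp past the 3′ end of the gene and had a score of 179. The pair was 8.65 kb apart from centre to centre. At least 2 C/EBP beta dDAVP peaks within 5 kb were found for 206 genes (0.952%), and Rgs2 was the only one of the 10 with such a pair. Of the whole list, 65.3% scored no higher than the upstream peak and 46.4% no higher than the downstream one. Rgs2 had no other protein-coding gene within 100 kb, and its nearest CREB1 peak was 6388.4 kb away after vehicle and 6388.5 kb away after dDAVP.

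The phosphatase genes differed in their peaks. DUSP5 removes phosphate from ERK in the nucleus, and DUSP1 acts on several MAP kinases. Dusp5 (chr19:53529145-53541809, plus strand) had a C/EBP beta dDAVP peak inside the gene at chr19:53531534-53531703, centred 2.47 kb after the start. It was 170 bp wide, narrower than all but 3.58% of the list, and its score was 90, at or above 13.5% of the list. A second C/EBP beta dDAVP peak, with a score of 148, lay 77.4 kb from the gene on its upstream side, nearer to the splicing factor gene Smndc1. CREB1 peaks of both treatments lay 138.2 kb from Dusp5, over one end of Smndc1 and outside the 100 kb limit. Also outside it, with Mxi1 as the nearest gene, lay C/EBP beta peaks of both treatments. The dDAVP peak was 163.8 kb from Dusp5 with a score of 995, and the vehicle peak was 163.9 kb away. Dusp1 (chr17:26505591-26508472, minus strand) had no peak of any list within 100 kb. Its nearest C/EBP beta dDAVP peak was 112.9 kb away, inside Ergic1, and its nearest CREB1 peaks were 435.9 kb away in both treatments.

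**Figure D3:**
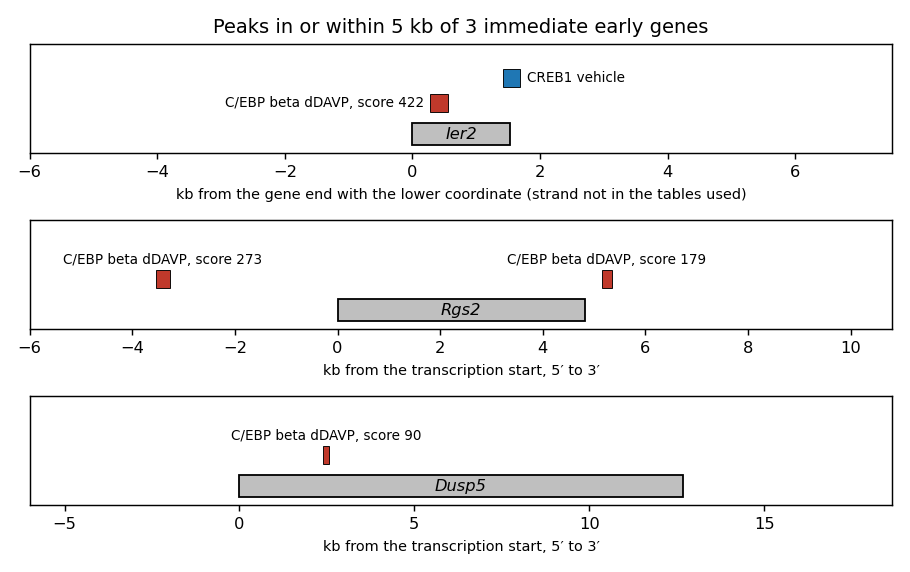
Genes (grey bars) and the peaks within 5 kb of them (coloured boxes), to scale in kb from the transcription start, or from the end with the lower coordinate for Ier2. The CREB1 vehicle peak covers one end of Ier2 while the C/EBP beta dDAVP peak lies inside that gene, Rgs2 is flanked by 2 C/EBP beta dDAVP peaks, and Dusp5 holds 1.

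The NR4A nuclear receptors are orphan receptors and textbook CREB targets. None had a CREB1 peak within 100 kb in either treatment. Over all genes, 18% had one after vehicle and 10.4% after dDAVP. In so few genes, an absence of such peaks was near the background. Nr4a1 (chr15:101253902-101274795, plus strand) had its nearest CREB1 peaks 701.7 kb away after both vehicle and dDAVP. A single C/EBP beta dDAVP peak lay 95.6 kb past its 3′ end, just within the limit, with a score of 214. That peak was 272 bp from the keratin gene Krt80, and another peak near Krt80 at 100.1 kb (score 249) fell just outside. Nr4a2 (chr2:57106830-57124003, minus strand) had no peak of any list within 2655.4 kb. Nr4a3 (chr4:48045078-48086447, plus strand) had its nearest C/EBP beta dDAVP peak at 695.8 kb and its nearest CREB1 peak at 1545.4 kb after vehicle and 7074.1 kb after dDAVP.

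Egr1, a zinc finger transcription factor, had distant C/EBP beta dDAVP peaks and no CREB1 peak nearby. The gene spans chr18:34861207-34864956. One peak lay 66.8 kb away over one end of Etf1, the gene of the translation termination factor, with a score of 510. The other lay 93.5 kb away with a score of 621, the highest of the 10 peaks, and was 4057 bp from Hspa9, which encodes a mitochondrial chaperone. Both peaks lay towards higher coordinates and both were closer to these other genes than to Egr1. The nearest CREB1 peak was 2779.1 kb away after vehicle and 25695.7 kb away after dDAVP.

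Ier3, a stress-inducible regulator of cell survival, had 1 distal C/EBP beta dDAVP peak that was closer to it than to any other protein-coding gene. The peak lay at chr17:35776823-35777278, 44.4 kb upstream of the gene (chr17:35821713-35822911, plus strand). Its width of 456 bp was the 54th largest of 2401, and its score of 539 was at or above those of 85.1% of the list. CREB1 vehicle peaks lay 146.9 kb and 156.5 kb from Ier3, outside the limit, at Abcf1 and at Prr3. Btg2, an antiproliferative cofactor, was the reverse case, with a CREB1 peak and no C/EBP beta peak. The gene spans chr1:134074865-134079155 on the minus strand. Its CREB1 vehicle peak at chr1:134093099-134093331 was 233 bp wide, wider than or equal to 22.4% of the list, and was centred 14.06 kb upstream of the start, away from the promoter with the full CRE. Btg2 was the nearest protein-coding gene. Its nearest C/EBP beta peaks were 215.1 kb away after vehicle and 215.0 kb away after dDAVP.

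None of the 12 peaks was found in both treatments. For CREB1 both peaks were in the vehicle list alone, while 50.6% of the whole vehicle list overlapped a dDAVP peak. The shorter dDAVP list held mainly counterparts of the wider vehicle peaks: 74.5% of vehicle peaks wider than 265 bp had one, against 17.7% of the 130 peaks from 233 to 265 bp wide, the range of the Ier2 and Btg2 peaks. For C/EBP beta all 10 peaks were in the dDAVP list alone, as were most peaks of that list, of which 8.70% overlapped a vehicle peak. The 10 peaks had scores from 62 to 621, with a median of 243.5, against a median of 197 for the whole list. In that range 1.61% of the 2050 dDAVP peaks overlapped a vehicle peak, against 60.9% of the 289 peaks with higher scores. The lowest score of any shared dDAVP peak was 273, which 5 of the 10 peaks reached: both of Egr1, 1 each of Ier2 and Ier3, and the upstream peak of Rgs2. From that score to 621, 5.84% of 565 peaks were shared. Most peaks of such scores and widths thus had no counterpart in the other list, and the length of the lists and the treatment cannot be told apart.

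**Figure D4:**
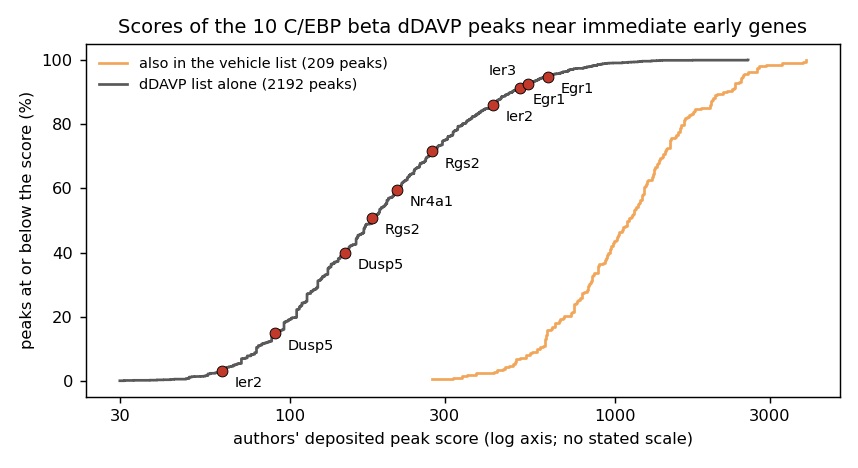
Cumulative share of C/EBP beta dDAVP peaks (y axis, %) by the authors' deposited score (x axis, log scale), for 209 peaks that overlap a vehicle peak and 2192 that do not. The 10 red points are the peaks within 100 kb of the immediate early genes, which lie between 62 and 621 on the curve of peaks without a vehicle counterpart.

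Distances to the nearest peak were then set beside those of all genes. The median distance from the 10 genes to the nearest C/EBP beta dDAVP peak was 81.2 kb, from 0 to 2655.4 kb, against 272.4 kb for all genes, and 8 of 10 genes were closer than that median. For CREB1 after vehicle the median was 568.8 kb against 809.6 kb, with 6 of 10 genes closer. For CREB1 after dDAVP it was 3545.1 kb against 1744.0 kb (5 of 10 closer), and for C/EBP beta after vehicle 7557.7 kb against 4164.9 kb (4 of 10 closer). These counts describe 10 genes and were not tested.

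Other immediate early and cAMP-responsive genes, a list of 61 that includes AP-1 genes and paralogs of the 10, were counted in the same way. Like the 10 genes, they were chosen with earlier results of these data known, so their shares only describe the list. Within 5 kb a C/EBP beta dDAVP peak was found for 16 of the 61 (26.2%, against 30.0% of the 10 genes and 7.88% of all genes). A CREB1 vehicle peak was found for 6 of 61 (9.84%, against 5.20% of all genes) and a CREB1 dDAVP peak for 2 (3.28%, against 2.74%). A C/EBP beta vehicle peak was found for 3 (4.92%, against 0.786%). The 6 CREB1 vehicle genes were the Maf gene Mafk, the kinase gene Plk2, the AP-1 genes Junb and Fos, the clock gene Per1 and Btg1, a paralog of Btg2. Fos and Btg1 also had a CREB1 peak after dDAVP. C/EBP beta vehicle peaks were near the pseudokinase gene Trib1, Fosl2 and Myc. After dDAVP a C/EBP beta peak shared bases with 10 of the 61 genes, and among these its centre was nearest to a gene end at Atf3, Ptgs2, Maff, Fosl1, Trib1 and Per1. Of the 14 paralogs of the 10 genes, such as Egr2, Dusp6 and Rgs16, none had a C/EBP beta peak within 5 kb in either treatment. Btg1 was the only one with a CREB1 peak there. Over all genes the C/EBP beta shares were 7.88% after dDAVP and 0.786% after vehicle. The CREB1 shares were 5.20% after vehicle and 2.74% after dDAVP, so such low counts in 14 genes were near the background. Btg1 had its CREB1 peaks over the gene in both treatments, where Btg2 had none within 5 kb.

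Likeness was counted as the number of the 4 lists with the same presence or absence of a peak within 5 kb. Per1 was the only one of the 61 genes with the pattern of Ier2 in all 4 lists, a CREB1 peak after vehicle and a C/EBP beta peak after dDAVP, which 86 genes in all showed (0.398%). The pattern of Rgs2 and Dusp5, a C/EBP beta peak after dDAVP alone, was shared by 12 of the 61, among them Atf3, Ptgs2, Maff, Fosl1, Gadd45a and Nfil3, and by 1365 of all genes (6.31%).

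**Figure D5:**
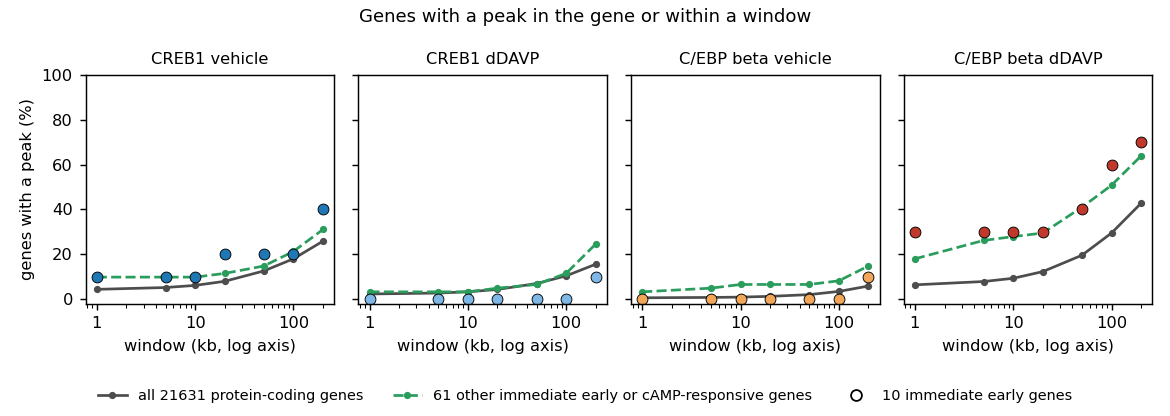
Share of genes (y axis, %) with a peak in the gene or within the window on the x axis (kb, log scale), for each peak list. Circles are the 10 immediate early genes, the dashed line 61 related genes and the solid line all 21631 protein-coding genes; in the C/EBP beta dDAVP panel the circles run from 30.0% at 1 kb to 70.0% at 200 kb, above the solid line, and the CREB1 vehicle circles lie nearer to it.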

How the data were processed

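Peaks were deposited as 4 lists, each for 1 antibody under 1 treatment. The tools MACS2, BWA, SAMtools and bedtools and the build mm10 are known per the submitters' processing notes, which give no versions or roles; how replicates were combined is not given in the sources used here. CREB1 lists held positions alone. C/EBP beta lists also held a score, the authors' own value for each peak, deposited without a stated scale; the peak names are those of replicate 1, with MACS2 settings of 0.01 for q, 300 for bandwidth and 1 for duplicates. The score served only for ranks and limits inside 1 list.

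Positions were converted to count from 1. Distances ran between the nearest edges of peak and gene, with Python 3.11.15, pandas 2.3.3 and NumPy 2.4.6, and peaks shared when they overlapped by 1 bp. The counting was tested on simulated data. Genes came from the RefSeq gene table (GRCm38.p6), strand and start sites from the promoter table, which held 17274 of the 21631 genes. Exons and introns were not told apart. No test was made: shares are set beside those of all genes.

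The 10 genes, the 61 related genes and the windows of 5 and 100 kb were chosen with earlier results of these data known. The text names all 10 genes, the gene nearest to each of their peaks, up to 6 related genes per list, closest first (at equal distance, by the peak centre's distance to a gene end), and up to 6 of like pattern. Genes nearest to peaks outside 100 kb, example paralogs and the printed promoters were chosen after their values were seen, since no promoter window overlapped a peak as planned. Alternatives changed the windows, edge or centre distances, ownership of peaks, score and width limits, and the overlap. The 61 related genes were all found in the gene table.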

Additional observations from a re-analysis of the deposited data

How the results depend on the processing

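Among the recomputed counts of genes and peaks, 35 stayed within 1.5 times the reported one and 7 did not. Many of those that stayed were counts of 0, which a narrower window, a score or width limit or a stricter overlap could not raise. For C/EBP beta after dDAVP, 4 genes instead of 6 with a window of 50 kb lay at the 1.5 limit. The count was also 4 when each peak within 100 kb counted only for its nearest protein-coding gene. At the limit too were 2 genes instead of 3 within 5 kb, with only peaks at or above the median score. With a window of 200 kb in place of 100 kb, the genes with a peak numbered 4 in the CREB1 vehicle list, 1 in the CREB1 dDAVP list and 1 in the C/EBP beta vehicle list, instead of 2, 0 and 0. With only CREB1 vehicle peaks at or above the list's median width, 0 genes had a peak within 100 kb and 0 within 5 kb, instead of 2 and 1. With only the 209 best-scoring C/EBP beta dDAVP peaks, as many as the vehicle list has (scores of 795 and above), 0 genes had a peak within 100 kb and 0 within 5 kb, instead of 6 and 3. Fewer peaks enter these counts by construction. No paired analysis was possible because each group has a single list with no values per replicate, and for the same reason no replicate could be left out. Depth per list is unknown, so a missing peak may lie below the limit of detection.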

Other observations

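The promoter windows of Nr4a1, Nr4a2 and Nr4a3 hold 4 short CREs (TGACG on either strand) each. This count per window was looked at after the matches were seen, and it was not tested. At least 4 short CREs were found in 69 of all 21045 windows (0.328%), which belong to 62 genes. Of these 69 windows, 47 overlapped a CREB1 vehicle peak (68.1%) and 43 a CREB1 dDAVP peak (62.3%). Of the 62 genes, 40 had a CREB1 vehicle peak over such a window (64.5%), and 22 had no CREB1 peak of either list over one, among them the 3 NR4A genes. With at least 3 short CREs, which adds Dusp1 to the 3 receptor genes, 146 of 292 windows overlapped a CREB1 vehicle peak (50.0%), and with at least 2 sites 395 of 1327 (29.8%). The 6 immediate early genes with at least 2 short CREs had none.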
